A study of Homo sapiens with 2 samples.

Results

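The miRNAs described here are those of the miR-34 family (miR-34a, miR-34b and miR-34c) and of the miR-192, miR-194 and miR-215 group. They were taken by name from a table of counts per small RNA locus, whatever arm or copy the name gives, which found 7 of the 947 loci. These were 1 locus each for hsa-miR-34a-5p, hsa-miR-34b-5p, hsa-miR-34c-5p, hsa-miR-194-5p and hsa-miR-215-5p, and 2 loci for hsa-miR-192-5p, named below without the human prefix. The libraries came from MCF10A, a non-tumorigenic human breast epithelial cell line. Cells of 1 group were given withaferin A, a steroidal lactone of the plant Withania somnifera, at 2 µM for 24 h (3 libraries), and those of the other were untreated (3 libraries). Nothing in the labels says that the libraries of a group came from separate cultures, so p-values measure only the spread between libraries, which may be technical. The labels name 2 library kits and, read in their order, give the NEBNext kit to withaferin A libraries and the QIAseq kit to untreated ones, so that the effects of kit and of treatment cannot be told apart.

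Depth decides what can be read from these loci. The withaferin A libraries held 418, 430 and 340 counts, 1188 in all, and the untreated libraries held 2571073, 2615684 and 1855838 counts. For a locus with 0 of 1188 counts, the level of 3 counts over the group is used throughout as the limit and is called the floor, at 0.253% of counts or 2525 CPM (counts scaled to a common library total). The floor is close to a one-sided limit and lies somewhat below the upper end of a two-sided exact interval. All 7 loci had an untreated mean below the floor. In the epithelial check, miR-205, a marker of basal epithelium, took 395 of the withaferin A counts and a mean of 68184 CPM in untreated libraries. At its untreated share 81.0 counts of miR-205 would have been recorded after withaferin A. Of the 4 basal epithelial markers listed, miR-221 had 2 counts where 12.9 would stand at its untreated share. miR-222 had 0 where 7.27 would stand, and miR-203a had 0 where 0.206 would. All 5 of the miR-200 and miR-141 epithelial markers had 0 counts, and 4 of them lay below the floor in untreated cells. miR-200c lay above it, with 7.31 counts at its untreated share. miR-221, miR-222 and miR-200c thus went the other way from miR-205.

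A miRNA is a short RNA that guides an Argonaute protein to messenger RNAs, mainly through its seed, bases 2 to 8 from the 5′ end. The miR-34 family is known to restrain growth, repressing messages for cell cycle and survival proteins such as MET, BCL2 and the cyclin-dependent kinases of G1. miR-34b and miR-34c are made from a shared transcript and are best known from multiciliated epithelia. The miR-192, miR-194 and miR-215 genes lie in paired units and are best known from liver, gut and kidney.

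The mature sequences are shown because they decide which loci act through the same seed and which can share reads. RefSeq (GRCh38.p14) held a mature sequence for 5 of the 6 names. Capitals mark the seed.
miR-34a-5p: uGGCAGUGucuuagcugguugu
miR-34b-5p: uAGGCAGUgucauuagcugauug
miR-192-5p: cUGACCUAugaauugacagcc
miR-215-5p: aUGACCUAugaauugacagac
miR-194-5p: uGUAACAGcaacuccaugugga
miR-192-5p and miR-215-5p had the same seed and shared 19 of 21 bases. Counted from 1 at the 5′ end, with the base of miR-192-5p first, they differed by C1A and C20A. The seed of miR-34a-5p stood in miR-34b-5p at bases 3 to 9, shifted by 1 base, so the seeds by position were not the same. miR-194-5p had a seed of its own in the RefSeq table.

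The genes sit in 4 places. The hairpin of MIR34A is at chr1:9151668-9151777 on the minus strand, in an exon of the long noncoding host MIR34AHG (GENCODE 29, GRCh38). MIR34B at chr11:111512938-111513021 and MIR34C at chr11:111513439-111513515 lie 417 bases apart on the plus strand. MIR192 at chr11:64891137-64891246 and MIR194-2 at chr11:64891355-64891439 lie 108 bases apart in exons of MIR194-2HG. MIR215 at chr1:220117853-220117962 and MIR194-1 at chr1:220118157-220118241 lie close together on the minus strand, opposite in strand to the intron of IARS2 that they overlap. The hairpins of this last group are shown with mature arms in capitals, since both miR-194 genes make the same mature miR-194-5p.
MIR192: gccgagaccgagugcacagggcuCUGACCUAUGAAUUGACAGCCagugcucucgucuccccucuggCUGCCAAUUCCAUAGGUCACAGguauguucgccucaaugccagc
MIR215: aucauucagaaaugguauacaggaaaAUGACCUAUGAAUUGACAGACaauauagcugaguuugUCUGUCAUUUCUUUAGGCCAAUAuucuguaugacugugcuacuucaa
MIR194-1: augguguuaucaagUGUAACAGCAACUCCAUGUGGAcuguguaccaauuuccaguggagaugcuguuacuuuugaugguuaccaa
MIR194-2: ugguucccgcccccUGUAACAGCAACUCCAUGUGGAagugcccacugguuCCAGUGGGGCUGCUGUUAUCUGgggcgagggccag
The counts hold miR-194-5p once, on chromosome 1. Because the mature sequence is identical in both genes, its counts cannot be assigned to MIR194-1 or MIR194-2. The table names loci by chromosome and a running number, with no start or end, so the coordinates are those of RefSeq.

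miR-34a-5p was the only one of the 7 loci with a count after withaferin A. It had 1, 0 and 1 counts in the withaferin A libraries and 3294, 1312 and 3201 counts in the untreated libraries. As levels these were 2392, 0 and 2941 CPM in withaferin A libraries and 1281, 502 and 1725 CPM in untreated libraries. The groups overlapped, since 1 withaferin A library was at 0 and the others lay above every untreated library. In a withaferin A library 1 count is worth 2326 to 2941 CPM, more than the untreated mean, so no value between 0 and that step could be recorded there. The mean was 1778 ± 1564 CPM in withaferin A libraries and 1169 ± 619 CPM in untreated libraries (SD, n = 3 each). The difference of 609 CPM was smaller than the spread between withaferin A libraries (exact two-sided permutation p = 0.6, where 3 against 3 cannot go below 0.1).

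Summed over the group, miR-34a-5p took 0.168% of withaferin A counts (2 of 1188, exact Clopper-Pearson 95% limits 0.0204% to 0.607%) and a mean of 0.117% ± 0.0619 of untreated counts (SD, n = 3). The ratio of shares was 1.44, with limits of 0.174 to 5.19 that cover counting error only. Both a fall of a few fold and a rise of a few fold lie within them. The 2 counts recorded compare with 1.39 at the untreated share. With trimmed mean of M values (TMM) scaling, the fitted log2 fold change of miR-34a-5p had the other sign, −0.71 ± 1.30 (SE, edgeR quasi-likelihood test, adjusted p = 0.792). With library totals in place of TMM it was 0.53 (edgeR adjusted p = 0.868), so the data gave no direction for miR-34a-5p. Over counts outside miR-205 and let-7, a denominator chosen after seeing the data, the ratio of shares was 7.52 (exact 95% limits 0.912 to 26.8, 2 of 177 withaferin A counts), and these limits include 1 as well. The ratio of miR-34a-5p to miR-205-5p counts, which no scaling alters, was 0.00730, 0 and 0.0102 in withaferin A libraries and 0.0182, 0.00815 and 0.0237 in untreated libraries. The groups overlapped, and the share of miR-205-5p itself was 4.88 times the untreated one.

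**Figure D1:**
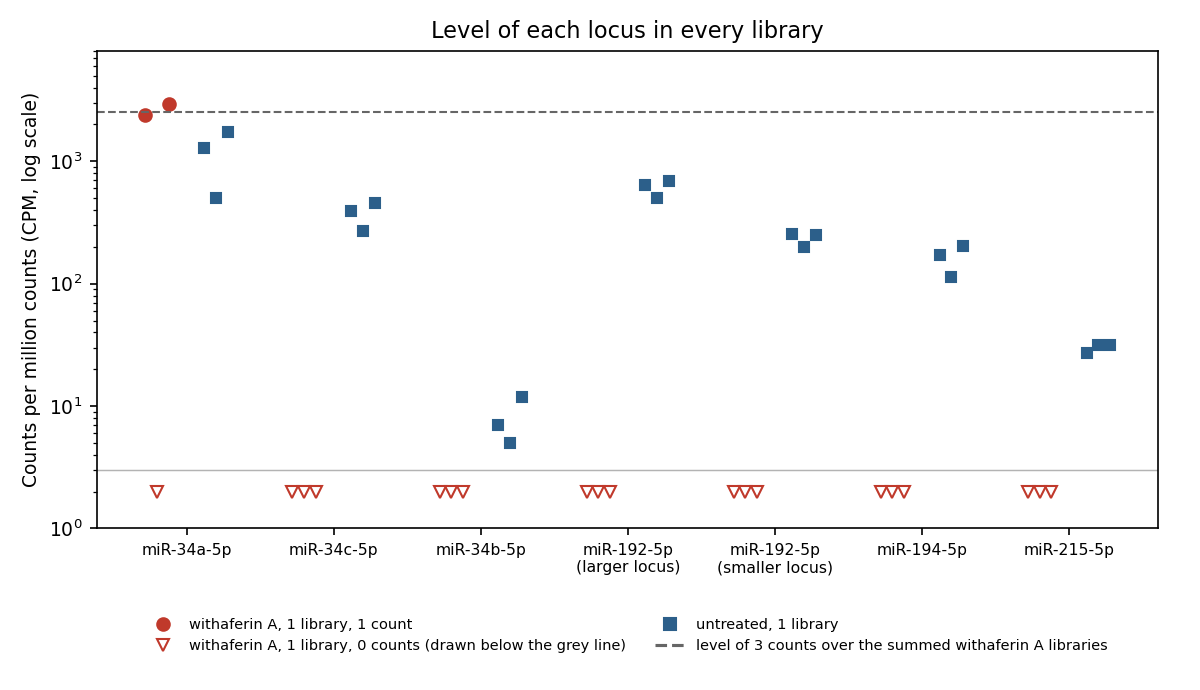
Level of each locus in CPM on a log axis, with withaferin A libraries (red) left of untreated libraries (blue) at each locus, 1 symbol per library. Open triangles below the grey line are libraries with 0 counts, and the dashed line is the floor of 2525 CPM; the untreated symbols all lie below it, and miR-34a-5p alone has withaferin A libraries above 0.

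The other members of the miR-34 family had 0 counts in all 3 withaferin A libraries. miR-34c-5p had 1004, 706 and 853 counts in untreated libraries, a level of 373 ± 96.0 CPM (SD, n = 3). At that share 0.444 counts would have been recorded in the summed withaferin A libraries. The floor is 6.76 times the untreated mean of miR-34c-5p. miR-34b-5p, transcribed together with miR-34c, was barely present, with 18, 13 and 22 counts in untreated libraries (7.94 ± 3.54 CPM, SD, n = 3). For miR-34b-5p the floor is 318 times the untreated mean. No fall of either could be seen at this depth, and 0 counts still allow a rise up to about that size.

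The miR-192, miR-194 and miR-215 loci had 0 counts in all 3 withaferin A libraries as well. miR-192-5p was listed at chr11_787183 with 1632, 1300 and 1290 untreated counts and at chr11_787184 with 653, 526 and 461. Their levels were 609 ± 102 and 234 ± 29.1 CPM in untreated libraries (SD, n = 3). The smaller locus held 0.357 to 0.405 of the counts of the larger one, so they are not copies with equal counts, and what sets them apart is not given in the file. miR-194-5p had 442, 299 and 377 untreated counts (163 ± 45.1 CPM, SD, n = 3). miR-215-5p, which has the seed of miR-192-5p, had 70, 83 and 59 (30.2 ± 2.62 CPM, SD, n = 3). The floor is 4.15 and 10.8 times the untreated mean of the miR-192-5p loci, 15.5 times that of miR-194-5p and 83.5 times that of miR-215-5p. Together these 4 loci took 0 of 1188 withaferin A counts and 0.104% ± 0.0173 of untreated counts (SD, n = 3), a share that gives 1.23 counts at the withaferin A depth.

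All 7 loci together took 1, 0 and 1 counts in the withaferin A libraries and 7113, 4239 and 6263 counts in untreated libraries. At the untreated share of 0.259% ± 0.0891 (SD, n = 3) 3.07 counts would have been recorded in withaferin A libraries. Over all loci listed, 4.65% had a count in at least 1 withaferin A library, and 1 of the 7 did here. Among the 895 loci whose untreated mean did not exceed that of 3 in 1188 counts, 16 were counted at least once after withaferin A.

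**Figure D2:**
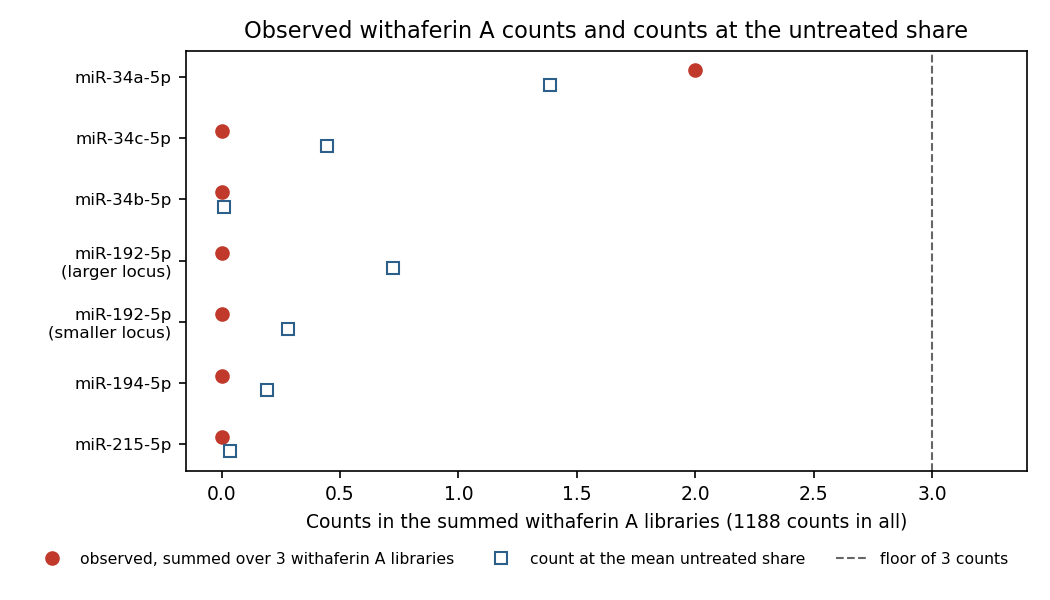
Counts summed over the 3 withaferin A libraries (red circles) above the count each locus would have at its mean untreated share of 1188 counts (open blue squares). miR-34a-5p had 2 counts against 1.39, and the other loci had 0 against 0.00943 to 0.723, all left of the dashed floor of 3 counts.

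In edgeR 303 of the 947 loci had enough counts to be tested, and 6 of the 7 were among them. miR-34b-5p was not. Of the 303 tested, 17.5% were called at an adjusted p under 0.05, 16.8% as lower, and 0 of the 6 were. An unadjusted edgeR p under 0.05 was found for 75 of the 303 and for 0 of the 6. Of these 6 loci 5 had 0 withaferin A counts, where 0.0359 to 0.723 would stand at an unchanged share, so the absence of calls carries no information on them. The lowest edgeR adjusted p, 0.233, belonged to the larger miR-192-5p locus. DESeq2 also called 0 of the 6, where it called 23.8% of loci, but it gave no adjusted p for miR-215-5p. In DESeq2 85 of the 303 loci had an unadjusted p under 0.05, and 1 of the 6 did. That was the same miR-192-5p locus (adjusted p = 0.0867 in DESeq2). limma-voom called 3 of the 6, all higher after withaferin A: miR-215-5p (adjusted p = 1.91e-12), miR-194-5p (adjusted p = 0.00322) and the smaller miR-192-5p locus (adjusted p = 0.0406). All 3 had 0 counts in every withaferin A library. limma-voom adds a constant to every count. In a withaferin A library 1 count is worth 2326 to 2941 CPM, and in an untreated library at most 0.539 CPM. limma-voom called 77.2% of the loci tested, with 59.4% of the loci tested called higher. limma on the authors' score called 6 of the 7 lower, all but miR-34a-5p, and 95.6% of its 660 loci (95.3% lower). With library totals edgeR called 0 of the 6 and 5.61% of loci. No size is read from the fitted fold changes of loci with 0 counts after withaferin A, and at 4 of these 5 loci, all but the larger miR-192-5p locus, the sign differed between tools.

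The order of counts between loci could be read in untreated libraries alone. How evenly different sequences were captured was not measured, so this is an order of counts and not of molecules in the cell. Each read is taken as 1 mature molecule of 21 to 23 bases, so CPM was not divided by length. By mean CPM the order was miR-34a-5p, the larger miR-192-5p locus, miR-34c-5p, the smaller miR-192-5p locus, miR-194-5p, miR-215-5p and miR-34b-5p. miR-34a-5p ranked 71 among the 947 loci, the larger miR-192-5p locus 95, miR-34c-5p 116 and miR-34b-5p 374. Neighbours overlapped between libraries at 2 places in that order, miR-34a-5p with the larger miR-192-5p locus and the smaller miR-192-5p locus with miR-194-5p. The other neighbours did not overlap in any pair of the 3 untreated libraries.

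Within an untreated library no scaling alters a ratio of counts, though uneven capture of different sequences could. miR-34a-5p held 1.86 to 3.75 times the counts of miR-34c-5p and 1.01 to 2.48 times those of the larger miR-192-5p locus. miR-34c-5p held 38.8 to 55.8 times the counts of miR-34b-5p, although both come from 1 transcription unit. The larger miR-192-5p locus held 15.7 to 23.3 times the counts of miR-215-5p, its seed partner. It held 3.42 to 4.35 times those of miR-194-5p, and miR-194-5p held 3.60 to 6.39 times those of miR-215-5p. Most counts listed under these names with a shared seed were thus under miR-192-5p. The counting rule is not given and a name may stand for a whole hairpin, so these are not counts of molecules with that seed.

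miR-34a-5p was also the locus least alike between untreated libraries. Its highest level was 3.44 times its lowest. Among the 237 loci with at least 50 counts in every untreated library, the median of that ratio was 1.44, and 98.3% had a smaller one. miR-194-5p (1.78) and miR-34c-5p (1.70) lay above the median, and both miR-192-5p loci and miR-215-5p (1.17) below it. Untreated replicate 2 was the lowest library for 6 of the 7 loci, all except miR-215-5p. That library was also the lowest for 58.2% of the 237 loci, and for 5 of the 6 members among them. Without untreated replicate 2 the mean share of miR-34a-5p was 0.150% of untreated counts, against 0.117% with it.

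**Figure D3:**
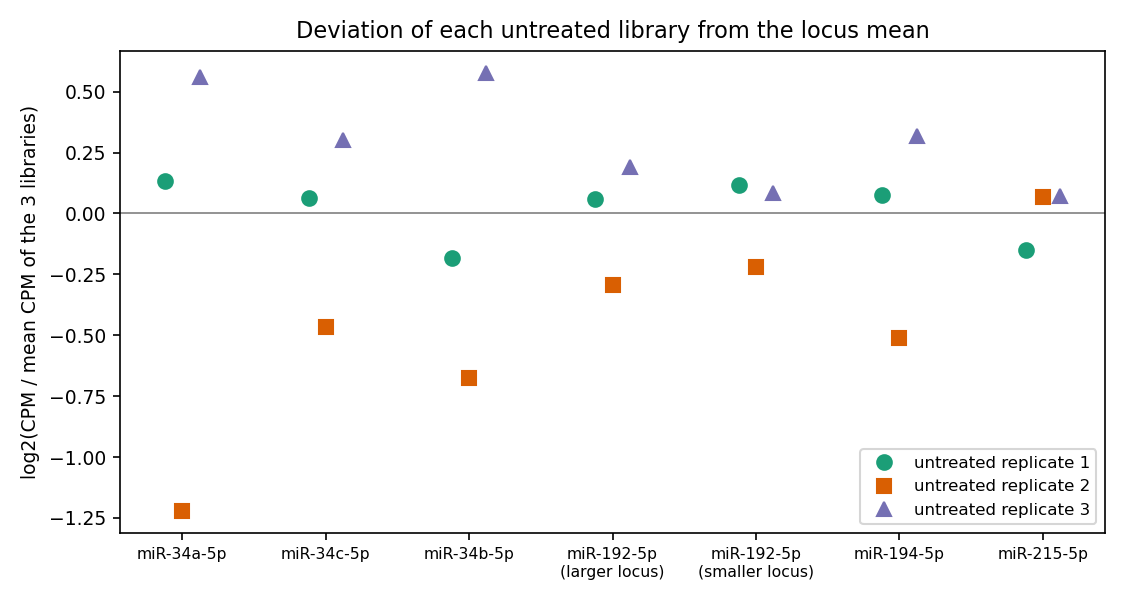
log2 of each untreated library's CPM over the mean of the 3 untreated libraries, for each locus, 1 symbol per library. Replicate 2 lies lowest at 6 of 7 loci, and did so for 58.2% of the 237 loci with at least 50 counts in every untreated library. The spread is widest at miR-34a-5p, where the highest level is 3.44 times the lowest.

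The nearest loci in level over the 3 untreated libraries were sought for 3 members, as the smallest distance in log2 CPM. For miR-34a-5p they were miR-96-5p (863, 490 and 1278 CPM, distance 0.72) and miR-378c (distance 0.77). miR-96-5p had 2 counts after withaferin A and miR-378c had 0. For miR-194-5p they were miR-345-5p (distance 0.13) and miR-19a-5p (distance 0.33). For miR-215-5p both were loci of miR-450a-5p (distances 0.28 and 0.31), which have near-equal counts, at 27.1 to 28.0 CPM in every untreated library. These 4 loci had 0 counts after withaferin A. All the loci named here lay below the floor in every untreated library, so no difference between them is read from these counts.

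miR-449c, a relative of miR-34 known from multiciliated cells, had 0 counts after withaferin A and 15, 22 and 10 in untreated libraries. At its untreated share 0.00777 counts would have been recorded after withaferin A, so the 0 counts carry no information.

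Markers of other tissues were also looked up. Liver markers (miR-122 and miR-885) took 0 counts in withaferin A libraries and 0.00533% ± 0.00216 of untreated counts (0.00404% to 0.00782%, n = 3). At that share 0.0633 counts would have been recorded in withaferin A libraries, so the 0 counts carry no information. miR-196b and miR-31, the names listed for gut and kidney, took 0 to 0.465% of withaferin A counts (2 counts, both of miR-31). In untreated libraries they took 0.107% ± 0.0117 of counts (SD, n = 3). Most of that came from miR-31, at 970 CPM, against 103 CPM for miR-196b. Whether miR-31 marks those tissues was not tested, so the share is not read as a gut or kidney signal. Of the multiciliated markers other than members the counts held miR-449c alone. Blood markers (5 of 6 in the table) took 0 counts in withaferin A libraries and 0.00904% ± 0.00272 of untreated counts (SD, n = 3). That share holds the miR-486 locus at 80.5 CPM and leaves out those at 78.8 and 53.6 CPM. Stromal and muscle markers (3 of 7) took 0 counts and 0.00327% ± 0.000595 (SD, n = 3). At the untreated shares 0.107 blood counts and 0.0388 stromal and muscle counts would have been recorded. Their 0 counts thus carry no information on cells given withaferin A.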

How the data were processed

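The authors deposited a table of whole-number counts for 947 loci in 6 libraries, and a second table of normalized values, here called a score. The submitters' processing notes name the build GRCh38.p7 and the tools cutadapt, Trim Galore and edgeR. The aligner, the counting rule and any use of molecular identifiers are not given in the sources used here. In the deposited score 1 count is worth 698 to 780 units in withaferin A libraries and 0.451 to 0.619 units in untreated libraries. It served for 1 alternative, limma on log2(score + 1). Columns were assigned to groups by the library names that each record lists.

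The test was the quasi-likelihood test of edgeR 4.0.16 (R 4.3.3) with TMM factors, after filterByExpr at its default minimum of 10 counts. The TMM factors were 0.767, 1.21 and 3.32 in withaferin A libraries and 0.688, 0.668 and 0.707 in untreated libraries. A locus was called at a Benjamini-Hochberg adjusted p under 0.05 over all loci tested. The SE is the absolute log2 fold change over the square root of F. Alternatives used DESeq2 1.42.0 and limma 3.58.1. Exact intervals came from SciPy 1.17.1 and, like the floor of 3 counts, cover counting error only. The names of the 7 loci end in 5p, yet a name may stand for a whole hairpin. The members, the lists and their tests were chosen with earlier results of these data known. Named were all members, the 2 loci nearest in level to each of 3 members with at least 10 counts in every untreated library, and the marker miRNAs of other cell types. Some further lists are not reported here.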

Additional observations from a re-analysis of the deposited data

How the results depend on the processing

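Leaving out each library in turn, on the loci kept with all 6, gave 0 calls among the members each time, and RLE factors, DESeq2, library totals, no filter, 1 locus per name and a replicate block also gave 0. limma-voom called 3 members and limma on the authors' score 6. The number of loci called (53) was 17 with library totals, 234 in limma-voom, 31 with 1 locus per name, 25 with a replicate block, 631 in limma on the authors' score, and 24 to 68 with a library left out, lowest without withaferin A replicate 3. The fitted log2 fold change of miR-34a-5p (−0.71) turned above 0 with library totals (0.53), in limma-voom (0.26) and with 1 locus per name (0.14), and ran from −1.48 to −0.25 with a library left out. It was −1.48 with RLE factors, −1.49 in DESeq2 and −3.89 in limma on the authors' score (limma adjusted p = 0.244). Loci with 0 counts after withaferin A turned above 0 in limma-voom: miR-34c-5p 0.71, the smaller miR-192-5p locus 1.36, miR-194-5p 1.91 and miR-215-5p 4.30, the last also in DESeq2 (1.90). On the authors' score limma called them lower: −8.74 for miR-34c-5p, −9.47 and −8.10 for miR-192-5p, −7.54 for miR-194-5p and −5.19 for miR-215-5p. These loci had 0 counts after withaferin A, so none of these values is a measured size. On the score their sign was fixed, since log2(score + 1) is at its lowest where the score is 0. The cause of the other differing signs was not tested.

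A denominator chosen after seeing the data, counts outside miR-205 and let-7, gave miR-34a-5p and the 7 loci together a mean of 1.19% in withaferin A libraries, against 0.178% of all counts. In untreated libraries it gave 0.150% for miR-34a-5p and 0.335% for the 7 loci, and with withaferin A counts summed the ratio of shares of miR-34a-5p was 7.52 (exact 95% limits 0.912 to 26.8), against 1.44 over all counts. Same-numbered libraries share only a number: their deviations over 42 loci correlated at 0.16, −0.01 and 0.17. Depth limits each comparison between the groups at these 7 loci, since 1 count is worth at least 2326 CPM in a withaferin A library.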
